A study of Homo sapiens with 3 samples.

Results

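The 10 TMED genes TMED1 to TMED10 were followed in Caco-2 cells, an established human cell line derived from a colorectal cancer, after depletion of the transcript OCC-1 (gene symbol C12orf75). All 32 probe sets that the platform annotation assigns to just 1 of these symbols were taken, out of 49395 probe sets on the array, and the 10 genes are among 18132 named genes. The family was picked because a TMED5 probe set was among those most raised over control, so the differences from control below describe these arrays and carry no test. The 3 arrays held total RNA from a Caco-2 line expressing shOCC-1-1 (line 1), a Caco-2 line expressing shOCC-1-2 (line 2), both labelled OCC-1 knockdown, and a Caco-2 line expressing the non-target hairpin shCTRL (control, 1 array). All 3 lines had received lentivirus, 5 days of selection with puromycin (1 µg/ml) and then 24 hours in drug-free medium, always with 20% fetal bovine serum. Each line was measured once, so the SD given with a difference is the spread between 2 lines with different hairpins.

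TMED proteins, also called p24 proteins, are small membrane proteins that shuttle between the endoplasmic reticulum and the Golgi apparatus. Their luminal GOLD domain and coiled coil face the cargo, and their short cytoplasmic tail binds the COPII and COPI vesicle coats. They assemble with each other into mixed complexes, and they help proteins with a glycosylphosphatidylinositol (GPI) anchor and Wnt ligands to leave the endoplasmic reticulum. The alpha subfamily holds TMED4 and TMED9, the beta subfamily TMED2, the gamma subfamily TMED1, TMED3, TMED5, TMED6 and TMED7, and the delta subfamily TMED10. TMED8 carries a GOLD domain but belongs to none of these subfamilies.

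Array medians were 182.5 in line 1, 183.6 in line 2 and 185.5 in control. OCC-1 itself was at 42.5% of control in line 1 and 32.5% in line 2. Of the Caco-2 epithelial markers 9 of 9 measured were above the median of all probe sets, against 3 of 6 fibroblast, 2 of 5 leukocyte and 1 of 5 endothelial markers, and 0 of all these markers were 1.5-fold from control in both lines. The summed epithelial intensities were 45373 and 45527 in lines 1 and 2 and 40915 in control. The array's 23 background control probe sets had log2 differences from control of -0.37 to 0.06 in line 1 and -0.23 to 0.04 in line 2. Their part in the values below was not tested, apart from a subtraction for TMED5.

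The upstream sequences of the 4 genes whose probe sets lay farthest from control are shown first, since they let a reader set the genes' start regions beside their expression. Each covers the 250 bases before the annotated gene start, written 5′ to 3′ on the strand of the gene, from RefSeq with build GRCh38.p14. They lie at chr1:93180414-93180663 (minus strand) for TMED5, chr14:75176613-75176862 (minus strand) for TMED10, chr5:115626037-115626286 (minus strand) for TMED7 and chr19:10836213-10836462 (minus strand) for TMED1. Capitals mark CCAAT and CCACG, on either strand, which are the ends of the endoplasmic reticulum stress element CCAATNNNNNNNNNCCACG.
TMED5: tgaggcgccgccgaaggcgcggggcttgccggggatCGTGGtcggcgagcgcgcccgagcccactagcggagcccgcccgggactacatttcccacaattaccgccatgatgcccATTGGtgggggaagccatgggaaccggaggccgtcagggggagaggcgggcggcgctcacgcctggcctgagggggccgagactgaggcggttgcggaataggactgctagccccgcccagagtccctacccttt
TMED10: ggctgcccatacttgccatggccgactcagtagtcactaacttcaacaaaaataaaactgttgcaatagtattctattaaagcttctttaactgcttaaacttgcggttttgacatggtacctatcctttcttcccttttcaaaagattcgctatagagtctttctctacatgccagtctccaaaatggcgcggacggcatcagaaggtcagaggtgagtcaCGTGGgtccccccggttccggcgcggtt
TMED7: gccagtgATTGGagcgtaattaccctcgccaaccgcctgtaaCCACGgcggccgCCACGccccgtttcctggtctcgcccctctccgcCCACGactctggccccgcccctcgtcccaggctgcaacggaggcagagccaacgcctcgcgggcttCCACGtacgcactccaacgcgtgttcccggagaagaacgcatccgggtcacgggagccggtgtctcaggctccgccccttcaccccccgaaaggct
TMED1: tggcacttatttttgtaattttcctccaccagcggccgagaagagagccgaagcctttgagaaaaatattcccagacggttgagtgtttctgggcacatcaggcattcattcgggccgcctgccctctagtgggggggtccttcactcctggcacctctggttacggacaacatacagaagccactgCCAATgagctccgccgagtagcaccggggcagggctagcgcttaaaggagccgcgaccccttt

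Of the 10 genes, 8 had a matched upstream sequence, and TMED4 and TMED9 are named here without one. CCAAT was found in 4 of these 8 (TMED1, TMED2, TMED5 and TMED7) and in 33.4% of 24885 gene starts, with the same window and both strands searched. CCACG was found in TMED2, TMED5, TMED7 and TMED10, against 33.1% of all gene starts, and TMED7 held it 4 times. The full element stood in 0 of 8 TMED sequences and in 0.0804% of all, and TGACGTGG, which holds CCACG on its opposite strand, in 0 of 8 and in 0.683%. The share of G and C was 70% upstream of TMED5 and 46.4% upstream of TMED10, with a median of 57.6% over all gene starts. These matches describe letters in a window and show no binding.

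Across the family, the OCC-1 knockdown lines did not move in 1 direction. Of the 32 probe sets 27 had a mean at or above the median of all probe sets (intensity 184), which was used as a filter on dim signals. TMED6, TMED8, a pair of TMED3 probe sets and 1 TMED9 probe set lay below it. A probe set was counted as higher or lower when both lines differed from control by 1.5-fold or more in the same direction. On that rule 1 of 27 TMED probe sets was higher, where the background over 22670 probe sets was 1.41%, and 0 were lower, where it was 0.11%. Counted by sign alone, 13 of 27 were above control in both lines (37.8% of all probe sets) and 12 below it (44.7% of all). At 1.3-fold 2 were higher, with a background of 5.5%, and 1 was lower, with a background of 0.723%. The median log2 difference of the 27 was 0.04 in line 1 and -0.02 in line 2, beside -0.01 and -0.02 over all probe sets.

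**Figure D1:**
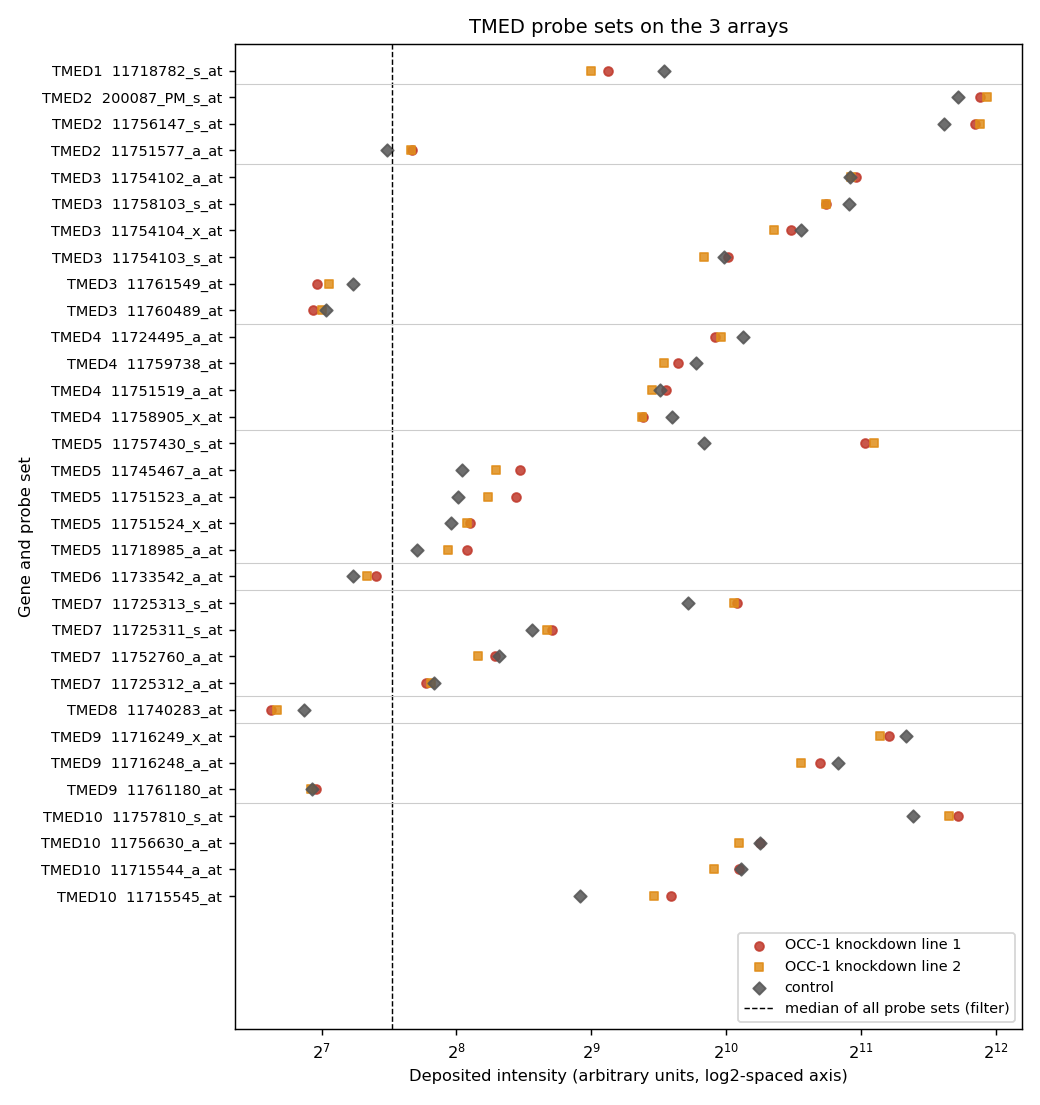
Intensity of all 32 TMED probe sets on the 3 arrays, with the intensity on a log2-spaced axis and 1 row per probe set, grouped by gene and ordered by mean level. The TMED5 probe set 11757430_s_at stands at 2090.0 and 2186 in lines 1 and 2 against 914 in control, while most other rows show the 3 arrays close together.

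TMED5, a gamma member also known as p28 that takes part in forming the Golgi ribbon, had the largest difference of the family. Its probe set 11757430_s_at read 2090.0 in line 1 and 2186 in line 2, against 914 in control. Both knockdown lines lay above control and close to each other. The probe set was 2.29-fold and 2.39-fold higher, a log2 difference of 1.22 ± 0.05 (SD, n = 2 lines), and ranked 2 of 22670 probe sets by the smaller of its 2 differences. In total RNA of a culture, more cells with a transcript and more transcript per cell cannot be told apart. The gene's other 4 probe sets, which passed the filter as well, showed smaller differences. Probe set 11745467_a_at read 355 and 314 in lines 1 and 2, against 264 in control. Probe set 11751523_a_at read 347 and 301, against 258 in control, and 11718985_a_at read 269.9 and 245, against 209 in control. Probe set 11751524_x_at read 274 and 270.1, against 249 in control. All 5 TMED5 probe sets were therefore above control in both lines, 1 of them by more than 1.5-fold and the other 4 by 1.10-fold to 1.35-fold in line 1 and 1.08-fold to 1.19-fold in line 2.

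The TMED5 probe sets were spread widely for this array. Their mean log2 differences spanned 1.10 between the highest and the lowest. Among the 345 genes that also had 5 probe sets above the filter, the median span was 0.33, and 1 gene, TMED5 itself, had a span this large. The upper end of the TMED5 span is 11757430_s_at, whose high value led to the choice of the family. The wide span thus partly restates that choice and is no test. Averaged over its 5 probe sets, TMED5 had a log2 difference of 0.46 and was not counted as higher. The dimmer probe sets sit nearer to the array's background, whose control probe sets had medians of 98.0 in each knockdown line and 104 in control. After these medians were subtracted, an alternative chosen after seeing the data, the mean log2 difference of the 2 lines was 1.33 for 11757430_s_at and 0.26 to 0.60 for the other 4. The parts of the transcript that each probe set reads were not used here. By its ending, 11757430_s_at belongs to those probe sets whose probes may match transcripts of more than 1 gene. Its signal may therefore not come from TMED5 alone, although the annotation gives TMED5 as its only symbol.

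**Figure D2:**
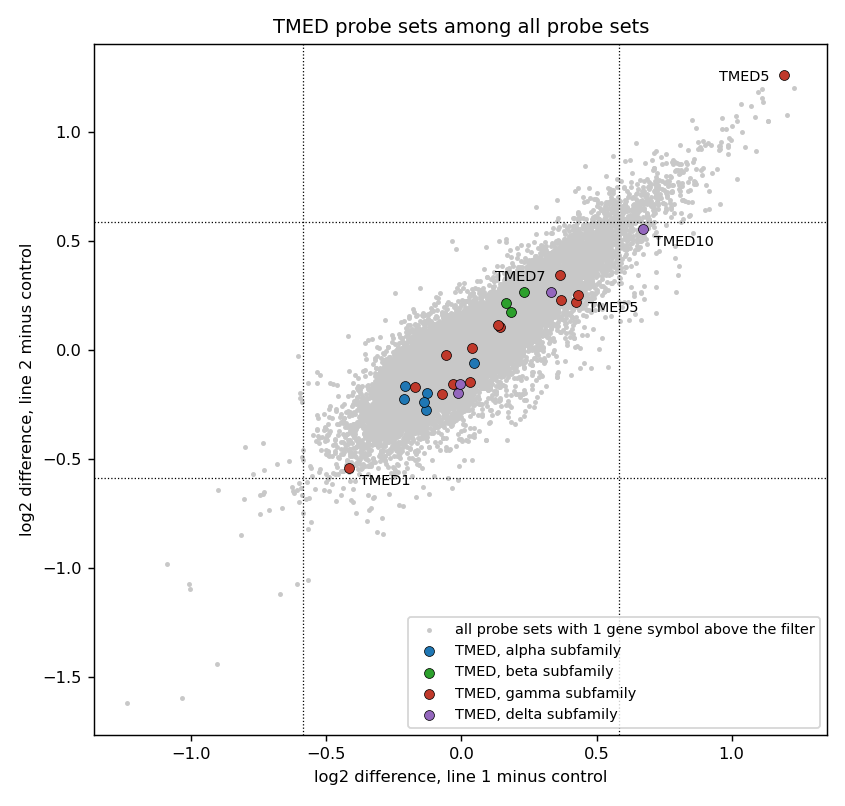
Log2 difference from control of each probe set above the filter, in line 1 on the x axis and in line 2 on the y axis, with the TMED probe sets coloured by subfamily over all probe sets in grey. Dotted lines mark 1.5-fold, and 1 TMED5 probe set lies beyond them in both lines, at 1.19 and 1.26, with 1 TMED10 probe set beyond them in line 1 only, at 0.67 and 0.55.

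Of the other gamma members, TMED7 is known for carrying the receptor TLR4 to the cell surface. Its probe set 11725313_s_at read 1082 in line 1 and 1065 in line 2, against 841 in control, and both lines lay above control (log2 difference 0.35 ± 0.02, SD, n = 2 lines). Of the gene's other 3 probe sets, 11725311_s_at was above control by less, with 417 and 407 in lines 1 and 2 against 378 in control, and the remaining pair lay below control in both lines. Those read 312 and 286 against 319 in control for 11752760_a_at, and 219 and 225 against 228 in control for 11725312_a_at. The pair above control thus ends in _s_at, like 11757430_s_at of TMED5, and the pair below it in _a_at. TMED10 split likewise between 11757810_s_at and its _a_at pair, but the family as a whole did not. The _a_at probe sets of TMED5 and TMED2 were above control in both lines. Probe sets 11718782_s_at of TMED1 and 11758103_s_at of TMED3 were below it in both. A part of shared probes in the TMED7 values was not tested. The 4 TMED7 probe sets spanned 0.45, and 23.3% of the 738 genes with 4 probe sets above the filter spanned at least as much.

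TMED1, a gamma member that binds the interleukin receptor IL1RL1, was the lowest of the family. Its only probe set, 11718782_s_at, which also ends in _s_at, read 556 in line 1 and 509.6 in line 2, against 743 in control. Both lines lay below control, by 1.33-fold and 1.46-fold, which missed the 1.5-fold rule (log2 difference -0.48 ± 0.09, SD, n = 2 lines). Counted from the lowest, it ranked 100 of 22670 probe sets by the difference closer to 0. TMED3, a gamma member that has been linked to Wnt signalling in colon cancer, was near control by its brightest probe set. Probe sets 11758103_s_at and 11754104_x_at of TMED3 were below control in both lines. Averaged over all of its probe sets, TMED3 had a log2 difference of -0.10. Its brightest probe set read 1990.0 in line 1 and 1945 in line 2, against 1936 in control, and its other 3 above the filter had log2 differences from -0.17 to 0.03 in line 1 and from -0.20 to -0.15 in line 2. TMED6 was dim on all arrays, with 169 and 162 in lines 1 and 2 and 150.1 in control, below the filter.

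TMED10 and TMED2 are partners in p24 complexes, each needed to keep the other stable, and are required for the export of GPI-anchored proteins. TMED10, the delta member, split by probe set. Probe set 11715545_at read 769 in line 1 and 707 in line 2, against 483 in control. Both lines were above control, at 1.59-fold and 1.47-fold, so that line 2 fell short of the 1.5-fold rule. This was the nearest miss on the higher side. The brightest, 11757810_s_at, read 3368 and 3213 in lines 1 and 2, against 2676 in control, also above control in both. The other pair, 11756630_a_at and 11715544_a_at, stood at 99.8% and 99.1% of control in line 1 and at 89.8% and 87.2% in line 2. The 4 TMED10 probe sets spanned 0.72, a span reached by 3.52% of the 738 genes with as many.

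TMED2, the beta member, showed the closest match among the TMED genes with 3 or more probe sets above the filter. Probe set 200087_PM_s_at read 3774 in line 1 and 3901 in line 2, against 3363 in control. Probe set 11756147_s_at read 3676 and 3770.4, against 3134 in control, and the dimmer 11751577_a_at read 204 and 203, against 179 in control. All 3 were above control in both lines, by 1.12-fold to 1.17-fold in line 1 and 1.13-fold to 1.20-fold in line 2, and spanned only 0.07 on the log2 scale. The genome holds pseudogene copies of TMED2 and TMED10, listed as TMED2P1, TMED10P1 and TMED10P2 in the RefSeq table, and probes may not separate them from the genes.

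The alpha members were lower in the knockdown lines by most of their probe sets above the filter, in small amounts. TMED9, which is known to hold misfolded cargo in the early secretory pathway, read 2366 in line 1 and 2254 in line 2, against 2583 in control, by its brightest probe set. Its second probe set above the filter read 1660.4 and 1501, against 1817 in control. Both were below control in both lines, at 91.6% and 91.4% of control in line 1 and at 87.3% and 82.6% in line 2. TMED4 read 967 and 997, against 1116 in control, by its brightest probe set. Of its 4 probe sets 3 were below control in both lines, with log2 differences from -0.21 to -0.14 in line 1 and from -0.24 to -0.16 in line 2, and 1 was at 0.05 and -0.06. TMED8 was dim, with 98.6 in line 1, 102.1 in line 2 and 117 in control.

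By the brightest probe set of each gene, 8 TMED genes passed the filter. TMED5 was the only one counted as higher (1 of 8, where the background over 11329 genes was 1.36%), and 0 were lower (background 0.159%). The differences of both lines were taken from the same control array, so an odd reading of that array would enter both. The difference between the lines does not use the control. By that measure the TMED probe sets were lower in line 2 than in line 1 in 21 of 27 cases, beside 55.1% of all probe sets, with a median log2 difference for line 2 minus line 1 of -0.07, beside -0.01 over all probe sets. The TMED values ranged from -0.20 to 0.06. These 27 probe sets come from 8 genes, so they are not separate cases. By the brightest probe set, TMED2, TMED4 and TMED5 were higher in line 2 than in line 1 (0.05, 0.04 and 0.06). TMED1, TMED3, TMED7, TMED9 and TMED10 were lower in line 2 (-0.13, -0.03, -0.02, -0.07 and -0.07). With 1 array per line the difference between the lines was not tested.

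The 5 genes outside the family whose pair of differences lay nearest to that of TMED5, by Euclidean distance over the 2 lines, were SNAP23 (distance 0.10 on the log2 scale), PTPRF (0.15), HHEX (0.18), ABHD3 (0.18) and RSL24D1 (0.21). Each gene, TMED5 included, was taken by its brightest probe set, and other probe sets of the 5 genes were not compared. With 2 differences per gene that share a control, this likeness says no more than that these probe sets were higher by similar amounts.

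The rest of the early secretory pathway was described with 7 lists of genes that work with p24 proteins, covering vesicle coats, other cargo receptors, fusion and tethering proteins, and the synthesis and carriage of GPI-anchored proteins. Of 157 genes 151 had a probe set and 139 passed the filter, and 0 of these were 1.5-fold from control in both lines, a share near the low background of 1.36% higher and 0.159% lower among all genes. In limma, which compared the 2 knockdown arrays with the control and whose p-values are not read for the TMED genes, 15 of 139 rose (background 9.63% of 11329 genes) and 2 fell (background 3.06%), at an adjusted p under 0.05. At an unadjusted p under 0.05 the background was 17.9% of all genes higher and 12.9% lower. The counts of each list below are to be read beside these backgrounds. The fit assumes that the lone control varies like the knockdown arrays. When the probe sets of a gene were averaged it called 7, of which 5 rose, and after quantile normalization 29, of which 16 rose.

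Among COPII genes, which form the coat of vesicles leaving the endoplasmic reticulum, 5 of 14 rose in limma and 0 fell. At an unadjusted p under 0.05 these counts were 7 and 3. SEC24B, a cargo-binding coat subunit, read 855 and 860.0 in lines 1 and 2, against 618 in control (limma log2 difference 0.47 ± 0.07 SE, adjusted p = 0.011). SEC23A, its partner in the inner coat, read 2077 and 2202, against 1543 in control (0.47 ± 0.08 SE, adjusted p = 0.0133). The others were SEC24A, SEC24D and SEC16A, named after their values were seen. They stood at 1.23-fold to 1.25-fold in line 1 and 1.26-fold to 1.37-fold in line 2. Only the brightest probe set of each is given here. The other probe sets of SEC24B and SEC23A lay nearer to control, with medians of 0.08 and 0.11 for SEC24B (1 probe set) and -0.01 and -0.03 for SEC23A (3 probe sets) in lines 1 and 2. SAR1A, the GTPase that starts coat assembly, also named after its values were seen, read 2208 in line 1 and 2871 in line 2, against 1825 in control, so that only line 2 was beyond 1.5-fold (limma adjusted p = 0.0805).

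COPI genes, which form the coat of vesicles that return cargo receptors to the endoplasmic reticulum, had medians of -0.08 and -0.09 in lines 1 and 2. In limma 1 of 17 rose and 0 fell, with 2 and 4 at an unadjusted p under 0.05. The one that rose was ARFGAP3, an activator of Arf GTP hydrolysis, at 1.299-fold in line 1 and 1.31-fold in line 2 (limma adjusted p = 0.0203), and its other probe set lay at -0.05 and -0.15. ARFGAP1, with the same activity, read 916 and 935 in lines 1 and 2, against 1062 in control (limma adjusted p = 0.124).

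Of other cargo receptors of the same route 2 of 17 were higher and 1 lower in limma, beside backgrounds of 9.63% and 3.06% of all genes. At an unadjusted limma p under 0.05 these counts were 3 and 5, beside backgrounds of 17.9% and 12.9%. MCFD2, which works with LMAN1 in carrying coagulation factors, read 1801 and 1629.6 in lines 1 and 2, against 1246 in control (limma adjusted p = 0.0195), and its other 3 probe sets had medians of 0.03 and -0.03. CNIH1 rose as well, at 1.295-fold and 1.24-fold (limma adjusted p = 0.0312), and is named after its values were seen. For CNIH1 only the brightest probe set is given here. CNIH4, another cornichon receptor, fell, with 3301 and 3349.6 against 4243 in control (limma adjusted p = 0.0264), and its other probe set lay at -0.02 and -0.15. LMAN1, the lectin partner of MCFD2, also named after its values were seen, read 711 in line 1 and 541 in line 2, against 855 in control (limma adjusted p = 0.0865).

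**Figure D3:**
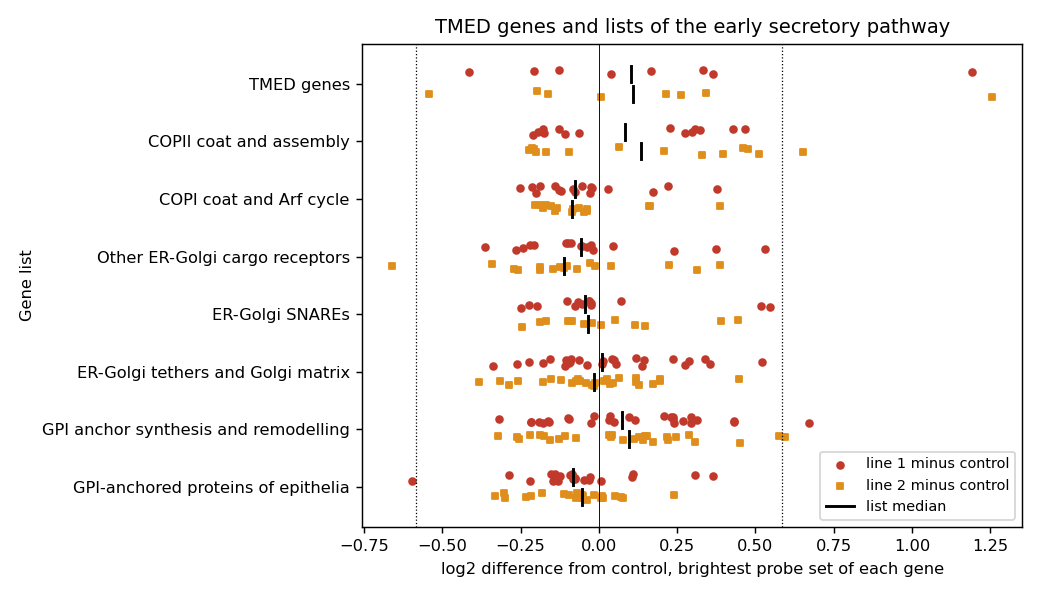
Log2 difference from control of the brightest probe set of each gene above the filter, for the 8 TMED genes and 7 lists of the early secretory pathway, with line 1 as circles, line 2 as squares, list medians as black bars and dotted lines at 1.5-fold. TMED5, at 1.19 and 1.26, lies to the right of every listed gene, and the list medians lie between -0.09 and 0.11 apart from COPII in line 2, at 0.13, and the other cargo receptors in line 2, at -0.11.

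SNARE proteins of the route, which fuse vesicles with their target, had 2 of 14 higher and 0 lower in limma, with 2 and 2 at an unadjusted p under 0.05. BET1, a SNARE of vesicles bound for the Golgi, read 479.9 and 448 in lines 1 and 2, against 329 in control (limma log2 difference 0.50 ± 0.08 SE, adjusted p = 0.0122). SCFD1, the SM protein that assists these SNAREs, read 777 and 711, against 543 in control (0.45 ± 0.08 SE, adjusted p = 0.0185). Their other probe sets lay nearer to control, with medians of 0.22 and 0.10 for BET1 (3 probe sets) and 0.23 and 0.06 for SCFD1 (1 probe set). Tethers and Golgi matrix proteins had 1 of 27 higher and 1 lower in limma, with 3 and 5 at an unadjusted p under 0.05. TRAPPC2 was at 1.43-fold and 1.36-fold (limma adjusted p = 0.0118), and TRAPPC5 was 1.26-fold and 1.31-fold lower (limma adjusted p = 0.0255), although both are subunits of the same tethering complex.

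GPI anchors are built in the endoplasmic reticulum and p24 complexes then carry the anchored proteins. Of the genes that make or remodel the anchor 4 of 28 rose in limma and 0 fell, with 8 and 6 at an unadjusted p under 0.05. PIGX, a partner of the first mannosyltransferase, read 473 and 442 in lines 1 and 2, against 297 in control (limma log2 difference 0.62 ± 0.08 SE, adjusted p = 0.00689). Its other 2 probe sets had medians of 0.41 and 0.42. DPM1, which makes the mannose donor, read 4731 and 4792, against 3505 in control (0.44 ± 0.07 SE, adjusted p = 0.0133). The others, named after their values were seen, were PIGW at 1.35-fold and 1.51-fold and PGAP2 at 1.23-fold and 1.22-fold. For PIGW and PGAP2 only the brightest probe set is given here. Of the GPI-anchored proteins themselves 0 of 22 rose or fell in limma, with 1 higher and 4 lower at an unadjusted p under 0.05. CD55, a complement regulator, read 2143 and 1968 in lines 1 and 2, against 1666 in control (limma adjusted p = 0.0596). Its other 5 probe sets had medians of 0.26 and 0.04. The intestinal alkaline phosphatase ALPI read 389 and 368, against 453 in control (limma adjusted p = 0.0742).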

How the data were processed

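Total RNA of 2 OCC-1 knockdown lines and 1 control line was measured on oligonucleotide arrays, and groups were taken from the genotype label. The authors deposited a table of linear intensities, with a value for each probe set on each array; RMA is named in the submitters' processing notes, and its version, settings and scaling are not given in the sources used here. The intensities, from 50.1 to 19619, were converted to log2 with no further normalization. Gene names came from the platform annotation and were checked by gene identifier against RefSeq (GRCh38.p14), with 44988 having 1 symbol and 0 symbols changed. Probe sets with a mean at or above the median of all probe sets were kept, and for gene lists the brightest probe set of each gene was used. limma 3.58.1 (R 4.3.3; lmFit, eBayes, two-sided, Benjamini-Hochberg over 11329 genes, 1 residual degree of freedom, 6.96 after moderation) was fitted over all genes. The p-values and SEs rest on the spread between the 2 knockdown arrays, mostly as pooled over all genes by the moderation. The SE of a gene is thus not the spread of its own 2 arrays alone. That spread may be technical, and the number of arrays limits the precision. Members and lists were chosen with earlier results of these data known. Named were all TMED genes, the pathway genes past 1.5-fold (otherwise the 2 farthest the same way in both lines), the 5 genes nearest to TMED5, and OCC-1; genes outside this rule are marked as named after their values were seen. Alternatives covered normalization, centring, background, fold size, filter, probe set choice and each line left out. Python 3.11.15, numpy 2.4.6, pandas 2.3.3 and matplotlib 3.10.9 were used.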

Additional observations from a re-analysis of the deposited data

How the results depend on the processing

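TMED5 was counted as higher with quantile normalization, cyclic loess, median centring, normexp, no filter, a filter at the 75th percentile, a 2-fold rule and either knockdown line alone, but 0 TMED genes were counted with the mean or with the median of all probe sets of a gene, and 0 of 14 probe sets without those ending in _s_at or _x_at, which the TMED5 probe set is. The 1.3-fold rule gave 2 genes and 3 probe sets, and cyclic loess gave 2 probe sets, the added one being 11715545_at of TMED10. Leaving out each knockdown line in turn gave 1 to 2 TMED probe sets, with the second, 11715545_at, appearing without line 2, and a median log2 difference of the TMED probe sets of -0.02 to 0.04. That median was 0.0086 as the mean of both lines and -0.080 with the filter at the 75th percentile. For the pathway lists the 1.5-fold rule gave 1 gene, PIGX, with cyclic loess, centring or normexp, 2 to 3 with a line left out, and 9 at 1.3-fold, all higher. In limma the 17 calls became 29 after quantile normalization (16 rose and 13 fell), 27 with no filter (19 and 8) and 7 with the mean of all probe sets (5 and 2). The cause of these shifts was not tested. With a knockdown line left out limma has no residual degrees of freedom and was not run. Of the alternative values for single genes or probe sets 41 stayed within the SD between lines and 24 did not. TMED1, TMED6 and TMED8 have 1 probe set each, so for them the mean and the median of all probe sets could not differ. Of the genes only TMED5 was called, and its difference kept its sign under each alternative. For TMED10 the median of its probe sets was -0.09, against 0.30 for the brightest, and for TMED3 quantile normalization gave -0.04, against 0.02. No paired analysis was possible because the control group holds 1 array.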

Other observations

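The read-through transcript TMED7-TICAM2, which joins TMED7 to the next gene, is named together with TICAM2 for 3 probe sets, which were not counted as TMED probe sets because they carry 2 symbols. They read 73.2, 71.7 and 114 in line 1 and 72.2, 71.5 and 118 in line 2, against 75.9, 71.4 and 111 in control, all below the median of all probe sets.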
